A study of Caenorhabditis elegans with 6 samples.

Results

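The hedgehog-related and patched-related genes of the nematode Caenorhabditis elegans were compared between wild-type animals and animals of a plp-1 mutant strain. Members were taken by gene symbol, without use of any measured value. The symbols of 87 genes matched, of 46769 genes that the authors deposited. Of these 61 belong to the ligand-like families, with 10 wrt (warthog), 17 grd (groundhog), 32 grl (ground-like) genes, hog-1 and qua-1 (quahog). The other 26 belong to the patched-like families, with 23 ptr (patched-related) and 3 ptc (patched) genes.

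Wild-type animals (strain N2) gave 3 libraries and plp-1(ok2155) animals gave 3. The mutant carries a loss-of-function allele of plp-1, a gene for a relative of the Pur-alpha nucleic acid binding proteins. Both groups were hermaphrodite cultures of embryos, larvae and adults together, kept at 20 °C on plates of OP50 bacteria that had become crowded but still held food. Replicates are described as biological, and whether they came from separate cultures is not stated. The mutant is known here by a single allele. Poly(A) RNA was sequenced, and total counts lay between 39331848 and 53486099 per library.

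In flies and vertebrates, hedgehog is a secreted signal that is cut and lipid-modified by its own C-terminal domain and binds the membrane protein Patched. The worm has no clear hedgehog gene of its own. It has instead many secreted proteins, some of which keep the self-cutting C-terminal (Hog) domain behind other N-terminal domains named Wart, Ground and Ground-like, and a large family of Patched-like membrane proteins with a sterol-sensing domain. Many of these genes are active in the epidermis and in cells that line openings of the body, and reduced activity of many of them disturbs growth, moulting and the cuticle. Transcripts of many epidermal genes of this kind peak once in each larval moulting cycle, so that their level in a mixed culture moves with the stages it holds. In such whole-animal samples, fewer cells or animals of a kind and less RNA per cell cannot be told apart.

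As a check of the labels, plp-1 itself stood at 293, 430 and 379 CPM (counts scaled to a common effective library size) in the wild-type libraries and at 20.4, 17.6 and 23 CPM in the mutant libraries. All labelled stages left markers: 12 of 12 early embryo genes were read in at least 1 library, with a sum between 9.29 and 30.1 CPM, and so was every gene of the lists that follow. The 6 vitellogenin genes, which adults express for yolk, summed to 37100 CPM in wild-type replicate 1, the lowest of the 6 libraries, and to between 44700 and 160000 CPM in the others. A list of 18 cuticle collagen genes summed to 536 CPM in wild-type replicate 1, the highest, then 244 CPM in mutant replicate 3, and between 66.4 and 153 CPM in the other 4. That sum rested on a few abundant genes such as dpy-17, at 232 CPM in wild-type replicate 1 and 19.5 to 50.5 CPM elsewhere. Gene by gene, wild-type replicate 1 was the highest library for 6 of the 18 and the lowest for 8, and mutant replicate 3 was the highest for 9. The median log2 fold change of the list was 2.93, with 12 of 18 positive and 10 without overlap between groups, all higher in the mutant. Over all tested genes 8.75% were separate in that direction. Of these collagens sqt-1 rose in the main test (edgeR adjusted p = 0.0382), 8 rose with the replicate block and 10 with DESeq2. These tests called 0.265%, 1.03% and 2.74% of all genes they tested higher. The 23 major sperm protein genes summed to between 6.78 and 27.2 CPM in wild-type and to 161, 186 and 52.4 CPM in the mutant libraries. Of the sperm genes 22 of 23 had all mutant libraries above all wild-type libraries. Their median log2 fold change was 3.14, and 0 were called in the main test, 2 with the replicate block and 22 with DESeq2, all higher. Most members below were highest in wild-type replicate 1 or mutant replicate 3. These libraries also held the highest level of 15 of the 18 collagens. They did so for 1 of 10 tested early embryo genes and for 0 of 23 sperm and 0 of 6 vitellogenin genes. What part these differences between libraries had in the results was not tested.

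Compared per length, in deposited FPKM (fragments scaled to model length and to the fragments of the library), a few genes held most of each class. Among the ligand-like genes grd-5 led with a mean of 147 FPKM over the 6 libraries, followed by grd-3 with 91.8, grl-4 with 32.3, wrt-5 with 17.6 and grd-14 with 13.5. In every library grd-5 lay above grd-3, while the range over libraries was wide in both, from 36.3 to 253 FPKM and from 28.3 to 144 FPKM. In wild-type replicate 1 wrt-10, at 37.6 FPKM, lay above both. Among the patched-like genes ptc-1, a Patched homologue that the germline needs for cell division, led with a mean of 96.3 FPKM. It was followed by ptr-2 with 64 and ptr-24 with 25.7 FPKM, while ptc-3, a Patched homologue that larvae need, had 5.61 FPKM. In every library ptc-1 lay above ptr-2. Its level ran from 54.1 to 150 FPKM and that of ptr-2 from 31.6 to 99.3 FPKM, so that the ranges over libraries overlapped.

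Many ligand-like genes had few counts. The filter on low counts kept 34 of 61 ligand-like genes, namely 9 wrt, 9 grd and 14 grl genes with hog-1 and qua-1, and 24 of 26 patched-like genes, leaving out ptc-2 and ptr-9. The 27 ligand-like genes that were not tested stayed at or below 0.408 CPM in every library. Of these grd-8, grl-13 and grl-23 held 0 counts in all 6, where 3 counts correspond to between 0.0464 and 0.09 CPM in a library, a limit that covers counting error only. The deposited positions placed 30 of 61 ligand-like genes (49.2%) on chromosome V, which holds 24.8% of protein-coding genes, while 9 patched-like genes lay on chromosome II and 7 on chromosome I.

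The comparison asked how the mutant and wild-type libraries differed in these transcripts. No ligand-like and no patched-like gene passed the threshold in either direction in edgeR's quasi-likelihood test, where 0.345% of all 15090 tested genes did (0.265% higher and 0.0795% lower). Before adjustment, p was under 0.05 for 7 of 34 ligand-like genes, all of them higher in the mutant and 0 lower, against 6.36% of all tested genes higher and 3.2% lower. Those 7 were wrt-7, grl-17, grl-22, grl-21, wrt-6, grl-16 and grd-6. Of 24 patched-like genes 0 had an unadjusted p under 0.05, and their smallest adjusted p was 0.588. The median log2 fold change was 0.57 over the tested ligand-like genes and -0.22 over the tested patched-like genes, beside -0.03 over all tested genes, with 21 of 34 and 11 of 24 positive. These are descriptions of genes that passed the filter. Both medians depended on single libraries: without mutant replicate 3 that of the ligand-like genes was -0.03, and without wild-type replicate 1 that of the patched-like genes was 0.58. Without both libraries together they were 0.86 and 0.04, a setting chosen after seeing the data.

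Of all members, wrt-7 came closest to the threshold. It encodes a secreted warthog protein and spans 10 exons on the minus strand of chromosome V from 15334754 to 15337505 (WBcel235, gene ID 191504). It stood at 0.588, 0.465 and 0.33 CPM in the wild-type libraries and at 3.13, 3.51 and 2.67 CPM in the mutant libraries, from 38, 22 and 11 counts and 141, 177 and 111 counts. All mutant libraries lay far above all wild-type libraries, and neither group spread much. The wild-type mean was 0.461 ± 0.129 CPM (SD, n = 3), the mutant mean was 3.1 ± 0.425 CPM, and the log2 fold change was 2.73 (SE 0.46, edgeR adjusted p = 0.073). With the replicate number as a block wrt-7 rose, at 2.76 (SE 0.51, edgeR adjusted p = 0.0323), in a fit that called 1.45% of all tested genes (1.03% higher and 0.424% lower). DESeq2 also called it (adjusted p = 4.52e-06). With DESeq2, 3 ligand-like genes were called, all higher, and 0 patched-like genes, beside 3.33% of all genes it tested (2.74% higher and 0.592% lower). Leaving out single libraries moved the log2 fold change between 2.49 and 2.94. None of these fits called wrt-7, and they called between 0 and 18 genes higher over the whole table. In the test without both wild-type replicate 1 and mutant replicate 3 wrt-7 rose (edgeR adjusted p = 0.0272). That setting was chosen after seeing the data and called far more genes than the main test, as given below. The neighbour of wrt-7, wrt-8, 4.55 kb away, was not tested and held at most 0.288 CPM in any library.

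The second was the ground-like gene grl-17, on chromosome V from 13561973 to 13563941 (gene ID 183855, 5 exons, minus strand). Its level was 0.387, 0.571 and 0.45 CPM in wild-type and 2.53, 2.1 and 2.55 CPM in the mutant, again with no overlap and with little spread within groups. The log2 fold change was 2.35 (SE 0.45, edgeR adjusted p = 0.0998), and it was 2.36 with the block (edgeR adjusted p = 0.0673). DESeq2 called it (adjusted p = 0.000168), and single libraries left out moved it between 2.21 and 2.46. The gene shares 190 exonic bases with the noncoding gene C56A3.14 on the opposite strand. The library kit marks the strand, but no source used here says if counting took it into account, so reads of the pair may not be separated.

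Among the 34 tested ligand-like genes 5 had all mutant libraries above all wild-type libraries (8.75% of all tested genes) and 0 the reverse (5.49%). Beside wrt-7 and grl-17 these were grl-22, wrt-6 and grd-10. The ground-like gene grl-22 stood at 0.913, 2.37 and 1.35 CPM in wild-type and at 3.98, 2.84 and 12.9 CPM in the mutant, where replicate 3 was far above the other two. Its log2 fold change was 2.09 (SE 0.68, edgeR adjusted p = 0.327), DESeq2 called it (adjusted p = 0.0463), and it shares 78 exonic bases with W03A5.1 on the opposite strand. The warthog gene wrt-6 had 1.05, 0.423 and 0.81 CPM in wild-type and 1.4, 1.69 and 4.73 CPM in the mutant. The groundhog gene grd-10, whose promoter is widely used to mark seam cells of the epidermis, had 0.372, 2.2 and 1.17 CPM in wild-type and 2.22, 4.41 and 2.62 CPM in the mutant. In grd-10 the groups only just cleared each other, since wild-type replicate 2 and mutant replicate 1 were almost level.

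**Figure D1:**
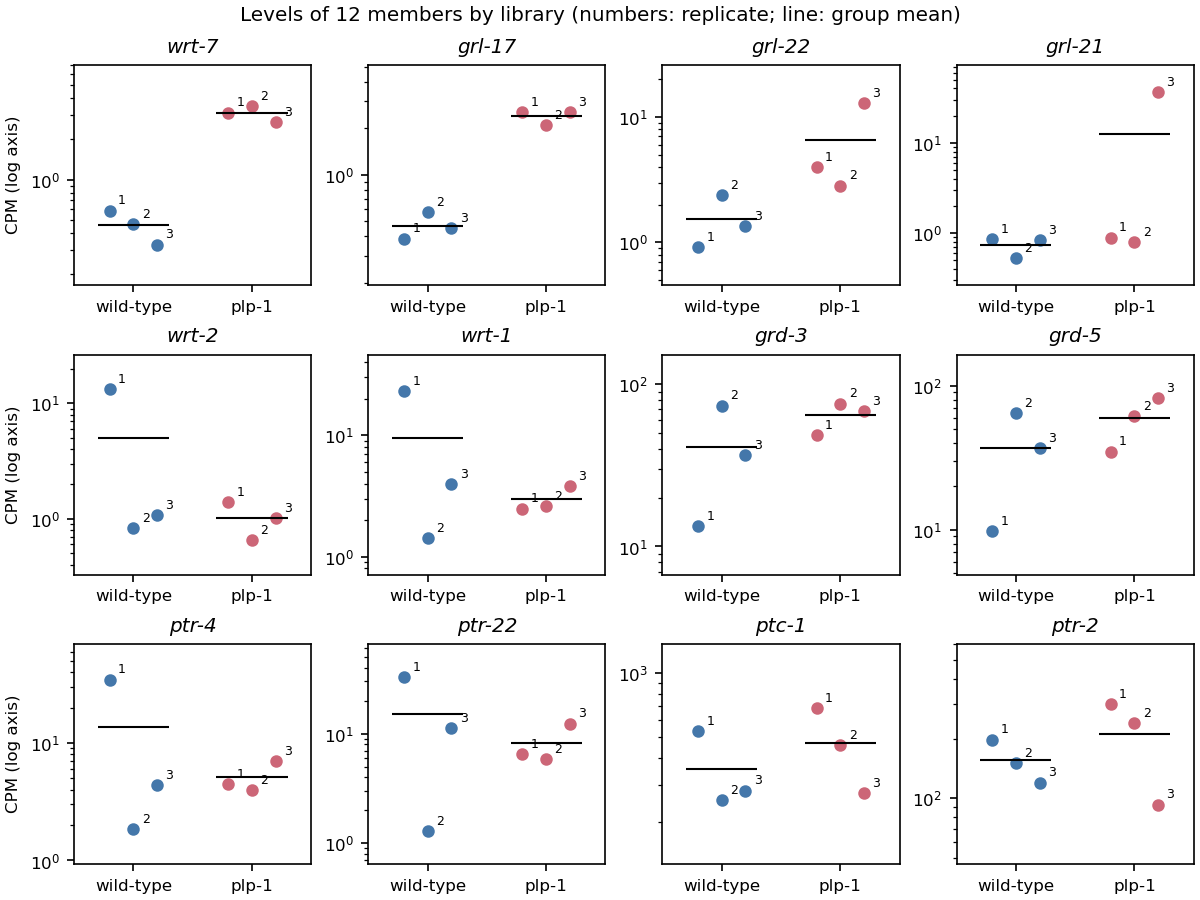
CPM on a log axis of 12 members in the 3 wild-type (blue) and 3 plp-1(ok2155) (red) libraries, with the replicate number beside each point and a line at the arithmetic group mean. The groups are far apart with little spread in wrt-7 (0.33 to 0.588 against 2.67 to 3.51 CPM) and grl-17, while mutant replicate 3 alone is high in grl-21 and wild-type replicate 1 alone is high in wrt-2.

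Other large differences of group means came from 1 library. The ground-like gene grl-21, which in C. elegans acts with PTR-24 in control of lipid storage downstream of the nuclear receptor NHR-25, stood at 0.851, 0.528 and 0.84 CPM in wild-type and at 0.889, 0.794 and 36.2 CPM in the mutant. Mutant replicate 3 was 40.7 times the next library, and the remaining 5 lay between 0.528 and 0.889 CPM. Its mutant level was higher by 4.09 on the log2 scale (SE 1.44, edgeR adjusted p = 0.383), which was 0.10 without that library. The same library was the highest in grl-4, at 73.1 CPM against 1.67 to 16.5 CPM in the others, and in grl-16, at 18.6 against 0.845 to 4.27 CPM. It was also the highest in grd-6, at 4.68 CPM against 0 to 0.689 CPM. Log2 fold changes of these 3 genes were 1.81, 2.00 and 3.30, and 0.52, 0.57 and 1.24 without mutant replicate 3.

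In the opposite direction wild-type replicate 1 stood highest. The warthog gene wrt-2 had 13.2, 0.824 and 1.08 CPM in wild-type and 1.4, 0.655 and 1.01 CPM in the mutant, so that wild-type replicate 1 was 9.45 times the next library and the other 5 lay between 0.655 and 1.4 CPM. The difference of -2.31 on the log2 scale (SE 1.04, edgeR adjusted p = 0.544) was 0.09 without that library. The neighbours wrt-1 and wrt-10 were also highest in wild-type replicate 1. They face each other on opposite strands of chromosome II with 0.016 kb between them. In wrt-1 the values were 23, 1.42 and 3.96 CPM in wild-type and 2.49, 2.62 and 3.82 CPM in the mutant. In wrt-10 they were 25.3, 3.72 and 11 CPM in wild-type and 4.89, 4.57 and 7.08 CPM in the mutant. In both genes wild-type replicate 3 also lay above every mutant library, in wrt-1 only just. Log2 fold changes were -1.67 and -1.28, and 0.14 and -0.42 without wild-type replicate 1.

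The quahog gene qua-1, which larvae need to moult, stood at 7.49, 0.486 and 1.02 CPM in wild-type and 2.16, 2.92 and 3.6 CPM in the mutant. Its groups overlapped only through wild-type replicate 1, and the log2 fold change of -0.06 was 1.94 without it (edgeR adjusted p = 0.274). The ground-like gene grl-7 had 7.25, 0.359 and 0.48 CPM in wild-type and 1.18, 1.27 and 3.1 CPM in the mutant, with a log2 fold change of -0.55 that was 2.13 without wild-type replicate 1 (edgeR adjusted p = 0.297). By contrast hog-1, which encodes a protein of little more than the Hog domain, lay between 0.78 and 1.58 CPM in all 6 libraries, and wrt-5 between 6.6 and 12.2 CPM. On the log2 scale hog-1 and wrt-5 differed by 0.22 and -0.33 (edgeR adjusted p = 0.916 and 0.815).

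The abundant groundhog genes had their low point, not their high point, in wild-type replicate 1. The gene grd-3 stood at 13.4, 73.7 and 36.6 CPM in wild-type and 48.7, 76 and 68.3 CPM in the mutant. The gene grd-5 stood at 9.74, 64.6 and 36.7 CPM in wild-type and 34.9, 61.2 and 82.1 CPM in the mutant. Both groups overlapped in both genes, where the mutant was higher by 0.64 and 0.68 on the log2 scale (edgeR adjusted p = 0.757 and 0.776). Without wild-type replicate 1 these differences were 0.21 and 0.22, and without wild-type replicate 2 they were 1.34 and 1.36. The gene grd-3 lies between grd-13 and grd-10 on the plus strand of chromosome IV, 0.148 kb from the first and 0.602 kb from the second. All 3 genes had their lowest level in wild-type replicate 1. The pair grd-14 and grd-4, on the plus strand of the X chromosome with 0.185 kb between them, was lowest there too, at 0.356 and 0.0774 CPM, and highest in mutant replicate 3, at 19.7 and 5.84 CPM. Whether such neighbours share a transcript was not analysed here.

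**Figure D2:**
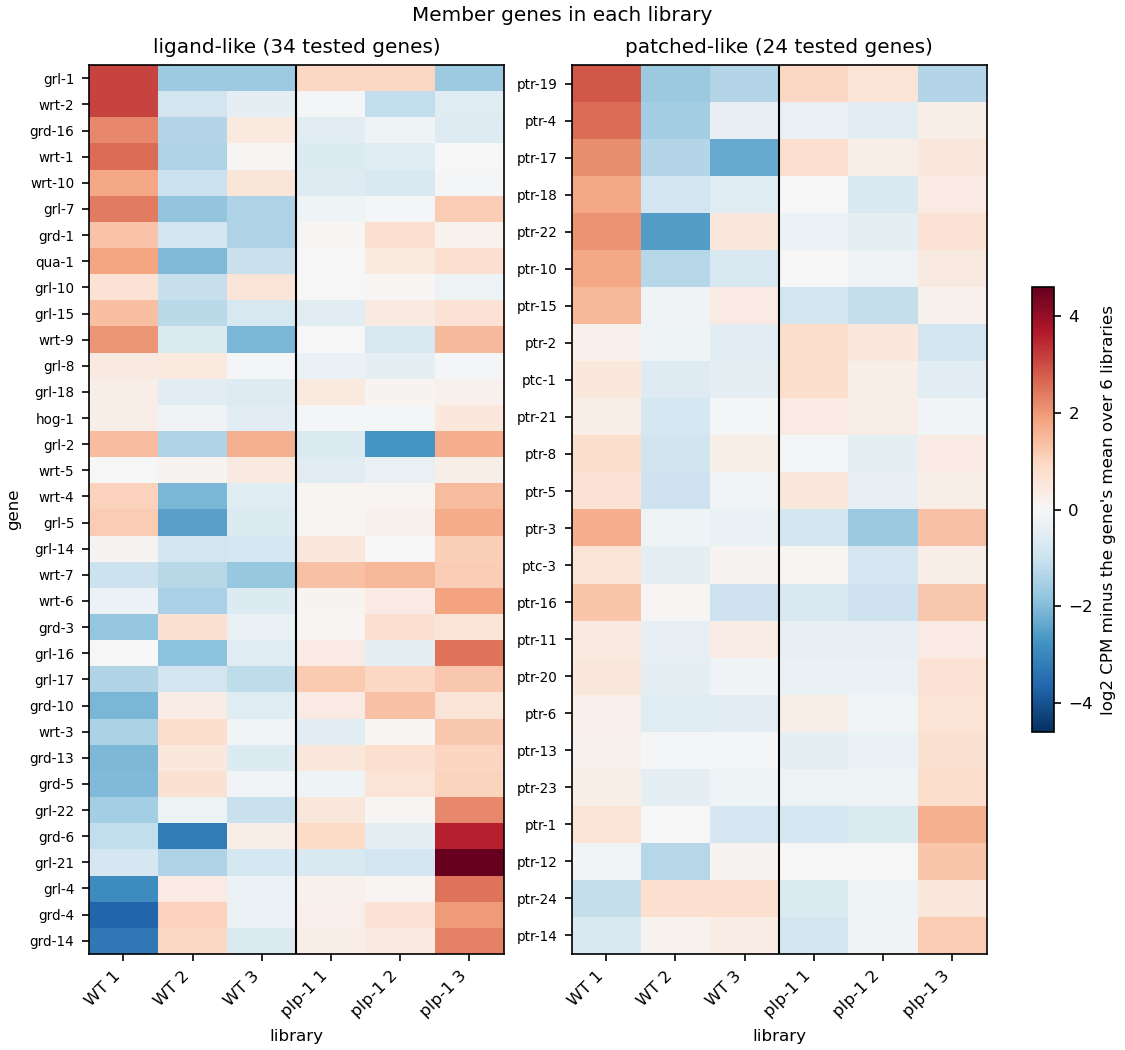
Colour gives log2 CPM minus the gene's own mean over the 6 libraries (columns) for the 34 tested ligand-like and 24 tested patched-like genes (rows), ordered by the difference between wild-type replicate 1 and plp-1(ok2155) replicate 3. Wild-type replicate 1 is high at the top of both panels and low for the grd genes at the bottom left, and plp-1(ok2155) replicate 3 is high for grl-21, grd-6 and grl-4.

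None of the patched-like genes had separate groups, against 8.75% of all tested genes with all mutant libraries higher and 5.49% with all lower. The gene ptr-4, which acts in the matrix that coats the outside of the epidermis and is needed to moult, stood at 34.6, 1.86 and 4.38 CPM in wild-type and 4.49, 3.99 and 6.96 CPM in the mutant. Only wild-type replicate 1 was high, and the log2 difference of -1.40 (SE 0.95, edgeR adjusted p = 0.7) was 0.72 without it. The gene ptr-22 followed with 32.6, 1.29 and 11.3 CPM in wild-type and 6.49, 5.84 and 12.3 CPM in the mutant. The gene ptr-18, whose product helps to clear secreted GRL-7 protein in the worm, had 10.3, 1.56 and 1.98 CPM in wild-type and 2.96, 1.79 and 3.82 CPM in the mutant. In both, as in ptr-4, a single wild-type library stood above every other library. The log2 fold changes of ptr-22 and ptr-18, -0.88 and -0.70, were 0.38 and 0.68 without wild-type replicate 1, and that of ptr-19 went from -1.11 to 2.24. The gene ptr-15 stayed negative, at -1.29 (SE 0.64, edgeR adjusted p = 0.588) and -0.65.

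The abundant pair ptc-1 and ptr-2 showed another pattern. In ptc-1 the values were 533, 254 and 281 CPM in wild-type and 683, 460 and 273 CPM in the mutant. In ptr-2 they were 198, 150 and 120 CPM in wild-type and 300, 239 and 92.9 CPM in the mutant. Both were highest in mutant replicate 1. Mutant replicate 3 lay between the lower 2 wild-type libraries in ptc-1 and below all of them in ptr-2. The log2 fold changes were 0.41 (SE 0.42, edgeR adjusted p = 0.806) and 0.43 (SE 0.42, edgeR adjusted p = 0.796). Without mutant replicate 1 they were 0.04 and 0.09, and without wild-type replicate 1 they were 0.81 and 0.63. The gene ptc-3 lay between 13.2 and 34.4 CPM in all libraries with a log2 difference of -0.23 (edgeR adjusted p = 0.889). Among the remaining patched-like genes the highest log2 fold changes were 0.90 for ptr-12, 0.51 for ptr-6 and 0.47 for ptr-1, whose highest value was in mutant replicate 3 in each case. Those of ptr-21, ptr-23 and ptr-14 were 0.32, 0.31 and 0.31, with edgeR adjusted p from 0.811 to 0.898.

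Counted over genes, the same 2 libraries held most of the highest values of both classes. Of 34 tested ligand-like genes 28 (82.4%) and of 24 tested patched-like genes 20 (83.3%) had their highest CPM in wild-type replicate 1 or mutant replicate 3, against 32.5% of all tested genes. Other lists had similar shares, with 83.3% of 18 cuticle collagens and 80% of 30 epidermal and moulting genes. The share was 75% of 8 tested glia and cilia markers, 73.3% of 15 hedgehog pathway relatives and 60% of 10 epidermis and seam markers. The pattern was therefore not particular to the members. The ligand-like genes divided into 11 in wild-type replicate 1 and 17 in mutant replicate 3, and the patched-like genes into 13 and 7. In 14 ligand-like and 9 patched-like genes one of these 2 libraries was at least 2 times the next highest library, as in 6.02% of all tested genes, and no other library stood out by that measure in any tested member. In wild-type replicate 1 these were grd-16, grl-1, grl-7, qua-1, wrt-1, wrt-2 and wrt-10 with ptr-4, ptr-10, ptr-15, ptr-17, ptr-18, ptr-19 and ptr-22. In mutant replicate 3 they were grd-6, grd-14, grl-4, grl-16, grl-21, grl-22 and wrt-6 with ptr-1 and ptr-12. The lowest values lay most often in wild-type replicate 2, in 15 of 34 ligand-like genes (44.1%) and 13 of 24 patched-like genes (54.2%), against 20% of all tested genes. In grl-1 wild-type replicates 2 and 3 and mutant replicate 3 tied at 0 counts, and the tie was counted for wild-type replicate 2. Apart from that tie, mutant replicate 3 was the lowest library for 0 ligand-like genes and 1 patched-like gene. Counting by highest and lowest library was chosen after the values were seen. Of the 13 ligand-like and 13 patched-like genes with a negative log2 fold change, 7 and 10 turned positive without wild-type replicate 1. Of the 21 and 11 genes with a positive one, 4 and 5 turned negative without mutant replicate 3.

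**Figure D3:**
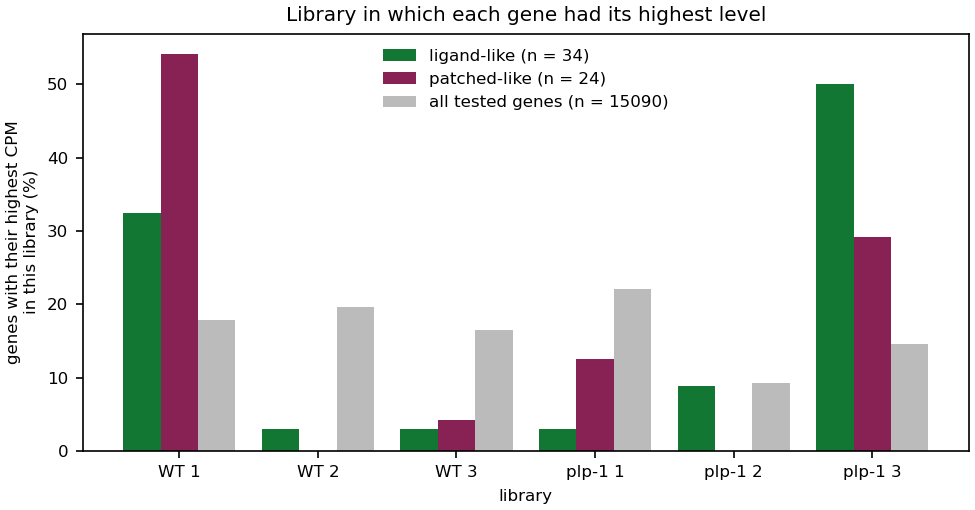
Bars give the share (%) of tested genes with their highest CPM in each library, for 34 ligand-like genes, 24 patched-like genes and all 15090 tested genes. Wild-type replicate 1 holds 54.2% of the patched-like genes and plp-1(ok2155) replicate 3 holds 50% of the ligand-like genes, where all tested genes give 17.9% and 14.6%.

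**Figure D4:**
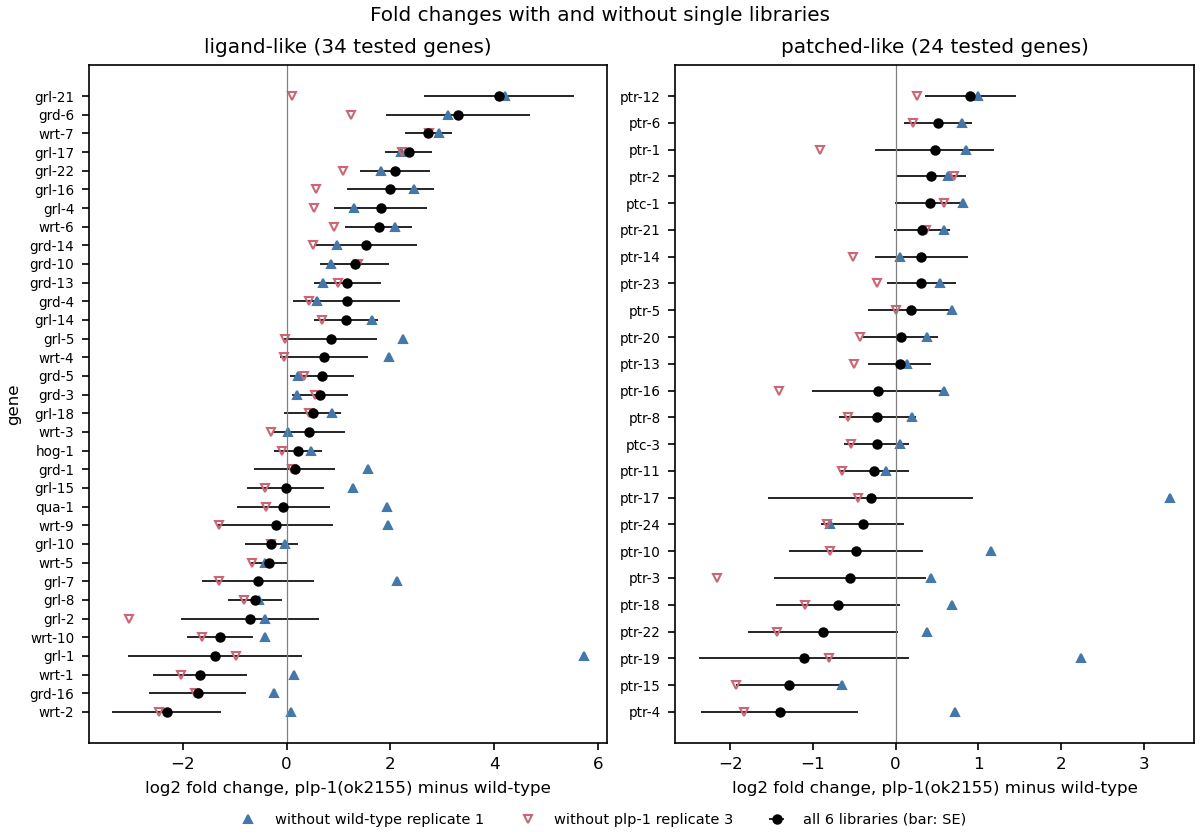
Log2 fold change, plp-1(ok2155) minus wild-type, of each tested ligand-like (left) and patched-like (right) gene with all 6 libraries (black, bar is the SE), without wild-type replicate 1 (blue) and without plp-1(ok2155) replicate 3 (red, open). The values coincide for wrt-7 and grl-17 and lie far apart for grl-21, wrt-2 and ptr-19.

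Of the members 18 had more than 1 transcript model. The members had 116 transcripts, of which 67 were tested. None of these was called by edgeR, where 0.0584% of all tested transcripts were. Before adjustment 6 were higher and 0 lower with p under 0.05, against 4.8% and 2.83% of all tested transcripts. Transcript use varied between libraries in ptr-24, named after the values were seen, whose 2 models have 2679 and 2481 bases. The longer model took 98%, 96.8% and 95.2% of the gene's estimated counts in wild-type replicates 1, 2 and 3. In mutant replicates 1 and 2 it took 25.7% and 16.2%, and in mutant replicate 3 it took 98.5%. Mutant replicate 3 therefore matched the wild-type libraries, and the groups overlapped. On the log2 scale the shorter model differed by 3.02 (SE 1.21, edgeR adjusted p = 0.632) and the longer one by -1.05 (SE 0.98, edgeR adjusted p = 0.84). The level of the whole gene was 30.3, 110 and 110 CPM in wild-type and 41.4, 55.1 and 92.7 CPM in the mutant, a difference of -0.40 on the log2 scale (SE 0.50, edgeR adjusted p = 0.843). A further fit left out wild-type replicate 1 and mutant replicate 3, a setting chosen after seeing the data. In it the whole gene fell by 1.19 on the log2 scale (edgeR adjusted p = 0.037) and the longer model fell by 3.47 (edgeR adjusted p = 0.0152). In the longer model the overlap lay between wild-type replicate 1 and mutant replicate 3, and in the whole gene it came from wild-type replicate 1. A fit without these libraries therefore cannot test the difference. It also called far more genes over the whole table than the main test, as given below. The transcript shares are the authors' estimates.

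**Figure D5:**
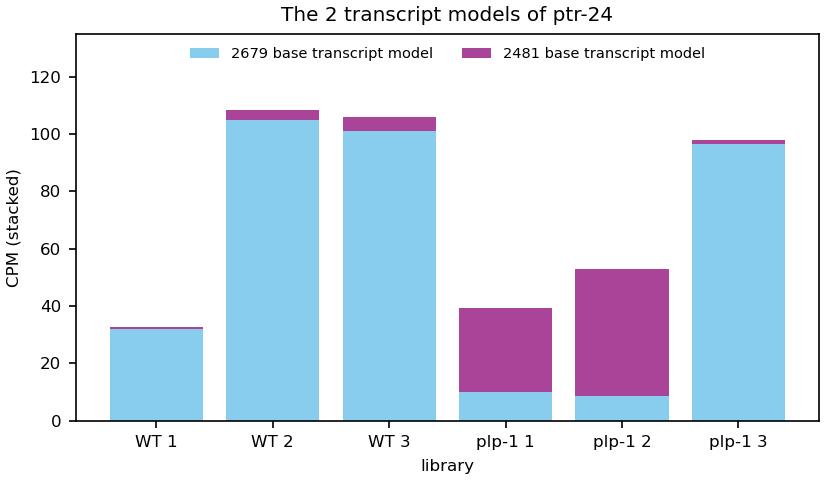
Stacked bars give the CPM of the 2 transcript models of ptr-24 in each library, scaled over the transcript table. The 2481 base model (purple) makes up most of the bar in plp-1(ok2155) replicates 1 and 2, with 29.4 and 44.4 CPM, and lies between 0.666 and 5.14 CPM in the other 4 libraries.

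Other genes that take part in hedgehog signalling elsewhere, or belong to the same protein families, gave 0 calls in edgeR among 15 tested, and 0 with an unadjusted p under 0.05. Their median log2 fold change was -0.25, with 3 of 15 positive, and it was 0.32, with 9 of 15 positive, without wild-type replicate 1. The gene che-14, a relative of Dispatched that works in secretion from the apical side of epidermal cells, stood at 4.15, 1.48 and 1.56 CPM in wild-type and 2.2, 1.71 and 2.52 CPM in the mutant. Log2 fold changes were -0.17 for che-14, -0.79 for daf-6, a patched-related gene that shapes the channel formed by glia, and -1.16 for ptd-2, another patched-related gene (edgeR adjusted p = 0.948, 0.794 and 0.595). Without wild-type replicate 1 they were 0.49, 0.46 and -0.47. The groups of ptd-2 did not overlap, with all mutant libraries lower, but they only just cleared each other. Its levels were 2.01, 0.613 and 0.81 CPM in wild-type and 0.467, 0.496 and 0.576 CPM in the mutant. The gene tra-1, the worm's relative of the Gli transcription factors and the last step of its sex determination pathway, had 25, 22.3 and 27.5 CPM in wild-type and 40.2, 28.2 and 39.9 CPM in the mutant. Its groups did not overlap either, with all mutant libraries higher, and its log2 fold change was 0.54 (SE 0.27, edgeR adjusted p = 0.595). Of the 15 genes 1 was thus separate in each direction, against 8.75% of all tested genes higher and 5.49% lower. Wild-type replicate 1 was the highest library for 9 of the 15 genes.

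Of 30 epidermal and moulting genes 0 were called in edgeR. Before adjustment 2 were higher and 2 lower with p under 0.05, against 6.36% and 3.2% of all tested genes. The count of higher genes lay near that share. The 2 higher were bli-1, also counted in the collagen list, at 3.32 (SE 0.78, edgeR adjusted p = 0.139), and lin-29, a factor of the switch from larva to adult, at 1.15 (edgeR adjusted p = 0.444). With the block bli-1 rose (edgeR adjusted p = 0.0305), in a fit that called 1.03% of all tested genes higher. The 2 lower were nas-37, a protease that opens the old cuticle, at -1.56 (SE 0.40, edgeR adjusted p = 0.174), and bed-3, a zinc finger gene of moulting, at -1.87 (edgeR adjusted p = 0.369) and at -0.90 without wild-type replicate 1. DESeq2 called bli-1 and nas-37 (adjusted p = 0.000653 and 0.0181), beside 2.74% of all genes it tested higher and 0.592% lower. The nuclear receptor genes nhr-23, which drives the moulting cycle, and nhr-25 differed by 0.12 and -0.58 on the log2 scale (edgeR adjusted p = 0.95 and 0.813), and by 0.53 and 0.01 without wild-type replicate 1. Wild-type replicate 1 was the highest library for 17 of the 30 genes and mutant replicate 3 for 7, and the list's summed level was 767 CPM in wild-type replicate 1 and between 288 and 380 CPM in the other 5 libraries. Of the 10 markers of epidermis and seam cells 4 were highest in wild-type replicate 1, and of the 8 tested markers of glia and cilia 6 were.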

How the data were processed

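Messenger RNA was sequenced from 6 libraries of mixed-stage animals. Per the submitters' processing notes StringTie 1.3.4d, HISAT2 2.1.0, Bowtie2 2.3.4.1, DESeq2, Trimmomatic 0.38 and FastQC 0.11.7 were used, with no roles given. The authors deposited estimated counts and FPKM for 46769 genes and 56158 transcripts on WBcel235. In each library 100% of transcript counts from 1 to 50 lay 0 to 1 (tolerance 0.01) above FPKM times length times a library constant, so the deposited counts had been rounded up. No further rounding was done before the tests. Genes lacking a symbol held at most 0.0246% of a library's counts and were left out.

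CPM rest on effective library sizes (edgeR's TMM). The filterByExpr function of edgeR 4.0.16 kept 15090 genes, which were tested with its quasi-likelihood test (R 4.3.3, group as the only term) with Benjamini-Hochberg adjustment over all of them. A gene was called at an adjusted p under 0.05. Each standard error was the log2 fold change divided by the square root of F. The code was tested on simulated data. Alternatives were other scalings, no filter, DESeq2 1.42.0, the replicate number as a block and leaving out libraries. Deviations from the group mean of log2 CPM correlated at 0.28, 0.21 and 0.36 between libraries of replicate 1, 2 and 3. All were above 0.1, so the numbers were also used as a block in an alternative fit. The main test did not use them. Deviations cancel within each group of 3, so these correlations are not independent and are weak evidence of pairs. The labels do not say what a number shares.

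Members and lists were chosen with earlier results of these data known. Genes were named by a rule: members called with or without the block, the 8 highest and 5 lowest log2 fold changes in each class among members whose higher group mean reached 1 CPM, the 3 highest mean FPKM per family, hog-1, qua-1 and the ptc genes; of the other lists, genes with an unadjusted p under 0.05, che-14, ptd-2, daf-6, tra-1, nhr-23 and nhr-25. The gene plp-1 was named as the check of the labels, and members without counts were also given by name. Other members and list genes given above or below were named after their values were seen. Positions and exons are those of the Ensembl annotation of WBcel235, in which 85 of 87 members were found.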

Additional observations from a re-analysis of the deposited data

How the results depend on the processing

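With 3 libraries per group and a biological coefficient of variation of 47.1%, a gene's call depended on few libraries. The whole-table counts of 40 higher and 12 lower genes became 155 and 64 with the replicate block, 486 and 105 with DESeq2, and lay between 0 and 18 higher and 1 and 5 lower with single libraries left out. Leaving out both wild-type replicate 1 and mutant replicate 3, a setting added after seeing the data, gave 488 and 328. In the ligand-like families 0 genes were called higher in the main test, 1 with the replicate block (wrt-7), 3 with DESeq2 (wrt-7, grl-17 and grl-22) and 1 without both libraries (wrt-7, edgeR adjusted p = 0.0272). With any single library left out 0 were called. In the patched-like families the one call in any setting was ptr-24, 1 gene lower without both libraries, at -1.19 (edgeR adjusted p = 0.037), together with 1 lower transcript of it. The 45 genes of the pathway and moulting lists gave 1 higher call with the replicate block (bli-1), 1 higher and 1 lower with DESeq2 (bli-1 and nas-37), and 1 higher without both libraries (lrp-1, a relative of megalin, edgeR adjusted p = 0.0435). Other scalings and the unfiltered table changed no direction or call of the 34 named members that were tested, and the block changed no other call.

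Medians ranged from -0.03 to 0.97 for the ligand-like and from -0.56 to 0.58 for the patched-like families with single libraries left out. Directions of some named members turned in that way. Their ranges were -2.92 to 0.09 for wrt-2, -2.27 to 0.14 for wrt-1, -1.30 to 2.13 for grl-7, -0.29 to 1.12 for wrt-3, -0.66 to 1.94 for qua-1 and -0.09 to 0.47 for hog-1. In the patched-like families they were -0.91 to 0.85 for ptr-1, -0.00 to 0.58 for ptr-21, -0.22 to 0.54 for ptr-23, -0.52 to 0.65 for ptr-14, -2.01 to 0.72 for ptr-4, -1.79 to 2.24 for ptr-19, -1.48 to 0.38 for ptr-22, -1.19 to 0.68 for ptr-18 and -0.54 to 0.05 for ptc-3. With the replicate block grl-7 turned to 0.80, qua-1 to 0.97, ptr-19 to 0.08 and ptr-1 to -0.00. Without both libraries wrt-2 turned to 0.10, grl-7 to 1.54, qua-1 to 1.76, ptr-4 to 0.44, ptr-18 to 0.41, ptr-19 to 2.70, ptr-1 to -0.42, ptr-14 to -0.72, wrt-3 to -0.66, grd-5 to -0.08 and grd-14 to -0.02. The cause was not tested.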

Other observations

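The gene ptc-2 did not pass the filter and belongs to no comparison above. The deposited table lists it as protein-coding, while the annotation of the same assembly places a pseudogene with 3 exons there, on the minus strand of chromosome II from 6083473 to 6085924. It held 0 counts in all wild-type libraries and 419, 9 and 0 counts in mutant replicates 1, 2 and 3. It shares 150 exonic bases with the noncoding gene F21H12.8 on the opposite strand.

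Estimated transcript use also differed between libraries in other members, with few counts. In grl-16 the longest of 3 models, of 1362 bases, held 0, 40 and 50 counts in wild-type and 154, 104 and 702 in the mutant, while the 1182 base model held 176, 0 and 24 and then 38, 16 and 39. In wrt-3 the 450 base model held 5, 8 and 8 counts in wild-type and 2, 6 and 167 in the mutant, so that mutant replicate 3 stood apart. The annotation places a pseudogene on the same strand that shares 1002 exonic bases with wrt-3. In wrt-5 the shortest model, of 270 bases, held exactly 1 count in each of the 6 libraries.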
